A study of Homo sapiens with 6 samples.

Results

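The FABP4 locus and a group of lipid-binding genes were examined in long cDNA reads of Calu-6, a lung carcinoma line. The 6 genes were FABP4, the long non-coding RNA gene ENSG00000253859 that spans FABP4 on the other strand, FABP5, PLIN2, DBI and C2orf76, the neighbour of DBI. They are 6 of the 10072 genes in the count table and hold 31 of its 21472 transcript models. The genes were chosen from the measured difference between the same groups of libraries, so their levels and fold changes below are a description and carry no test.

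Transfection lasted 48 h at 10 nM and used either a control siRNA that silences no gene (siControl, 3 libraries) or an siRNA to the exon 1 and exon 5 junction found in the Delta 2-4 splice variant of TERT, the catalytic protein of telomerase (siDelta2-4, 3 libraries). The labels call the cells of both groups WT, whereas the names of the count columns carry the word that the study uses for Calu-6 cells with a stable empty vector, so whether all 6 libraries share that vector was not settled here. Libraries are numbered as in the count columns, and the study calls them biological replicates, but neither it nor the labels say that they came from separate cultures, so p-values measure the spread between these libraries. The libraries held 1037468 to 1106413 counts in siControl and 1070009 to 1309241 in siDelta2-4, and TERT had no row, so its knockdown was not analysed here.

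Fatty acid binding proteins are small cytoplasmic carriers that hold a fatty acid in a barrel-shaped pocket and move it between membranes, droplets and nucleus. FABP4 is the form best known from adipocytes and macrophages, where its gene is a target of the fatty acid receptor PPARG, and FABP5 is the form of skin and many epithelia. PLIN2 coats lipid droplets, and DBI, also called acyl-CoA-binding protein, carries activated fatty acids. The function of C2orf76 is not well described.

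Calu-6 was checked against marker genes of the cell types in which FABP4 is known. Of 6 adipocyte markers only ADIPOR2 had a row, with 0 counts in every siControl library and 0 to 1 in siDelta2-4, and none of 6 endothelial markers had a row. Of 6 macrophage markers 3 had a row (CSF1R, CD68 and CD14), with summed counts of 15 to 21 per library in siControl and 12 to 18 in siDelta2-4. Most of these were CSF1R (82 counts in all), which overlaps the pseudogene RPL7P1 on the other strand (54 counts). How the counting treated read orientation is not given, and whether all of these reads came from CSF1R was not tested. Of 6 epithelial markers 5 had a row, and their summed counts were 287 to 308 in siControl and 332 to 411 in siDelta2-4. These were mainly keratins KRT8 and KRT18, while EPCAM had 1 to 3 counts per library, KRT7 had 3 to 11, KRT19 was at 0 in 5 of the 6 libraries, and CDH1 had no row. Of 6 mesenchymal markers VIM and FN1 had rows, with summed counts of 130 to 150 and of 170 to 207, nearly all of them VIM. Every model in the table had counts in siDelta2-4, so a marker counted in siControl alone would have no row. In bulk RNA such as this, fewer cells of a type and less RNA per cell cannot be told apart.

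The genes DBI and C2orf76 point away from each other across a gap of 89 bases. The RefSeq promoter table, with 300 bases around each start, held 3 of the 6 genes (DBI, C2orf76 and PLIN2). The gap between DBI and C2orf76 (GRCh38.p14, chr2:119366835-119366923, plus strand) is printed because it lies between the Gencode 44 ends of both genes. Not all annotated starts of either gene border it. The 100 bases before the RefSeq start of PLIN2 (chr9:19127493-19127592, minus strand) are printed beside it because both hold the same motif. Capitals mark the palindromic E-box CACGTG and, in the first sequence, CCAAT read on the other strand.
between C2orf76 and DBI: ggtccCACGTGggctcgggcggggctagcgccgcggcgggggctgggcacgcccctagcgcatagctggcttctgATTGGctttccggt
before PLIN2: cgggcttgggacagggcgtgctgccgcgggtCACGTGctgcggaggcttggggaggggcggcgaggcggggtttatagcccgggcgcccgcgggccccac

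The E-box begins at base 6 of the first sequence and at base 32 of the second, and the CCAAT match begins at base 76 of the first. Searched on both strands, CACGTG was in 7.23% and CCAAT in 34.7% of the 34943 RefSeq promoters of 300 bases. A direct repeat of AGGTCA with 1 base of any kind between the copies, the textbook element of PPAR receptors, was in 8 of these promoters (0.0229%) and in none of the entries of DBI, C2orf76 and PLIN2. A further RefSeq entry of C2orf76 lies wholly within DBI (chr2:119367102-119367401, minus strand). A match describes letters only, and these windows were not tested for binding.

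FABP4 (ENSG00000170323.9, chr8:81478419-81483236, minus strand) was higher in every siDelta2-4 library. Its counts were 982, 881 and 908 in siControl and 1780, 1852 and 2282 in siDelta2-4. As CPM, which are counts scaled to a common library total after TMM correction for library composition, these were 957, 845 and 870 against 1667, 1505 and 1751. The groups did not overlap, and the lowest siDelta2-4 library lay far above the highest siControl library. The mean was 891 ± 59.1 CPM with siControl and 1641 ± 125 CPM with siDelta2-4 (SD, n = 3 each), a log2 fold change of 0.88 ± 0.083 (SE).

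The long non-coding RNA gene ENSG00000253859 (ENSG00000253859.2, chr8:81439436-81521818, plus strand), for which the annotation gives no function, showed the same order of libraries. Its counts were 938, 887 and 922 in siControl and 1682, 1751 and 2122 in siDelta2-4. The siControl mean was 883 ± 31.96 CPM and the siDelta2-4 mean 1542 ± 107 CPM (SD, n = 3 each), a log2 fold change of 0.80 ± 0.081 (SE). Here too every siDelta2-4 library was above every siControl library.

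FABP5 (ENSG00000164687.11, chr8:81280536-81284777, plus strand), which lies 193641 bases from FABP4, did not share this pattern. Its counts were 778, 688 and 682 in siControl and 769, 791 and 879 in siDelta2-4. In CPM these were 759, 660 and 653 against 720, 643 and 674, so the groups overlapped. Means of 691 ± 59.0 CPM for siControl and 679 ± 38.9 CPM for siDelta2-4 (SD, n = 3 each) gave a log2 fold change of -0.025 ± 0.088 (SE), and with library totals as the only scaling its sign was positive (0.045). Both proteins belong to 1 family, and an alignment of their coding sequences (396 bases in FABP4, 405 in FABP5) matched at 65.5% of its columns, so reads of the 2 mRNAs are distinct in sequence.

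PLIN2 (ENSG00000147872.10, chr9:19108375-19149290, minus strand), the droplet coat protein, was counted far less often. Its siControl libraries gave 22, 13 and 13 counts and its siDelta2-4 libraries 14, 16 and 20. Means of 15.5 ± 5.19 CPM for siControl and 13.8 ± 1.32 CPM for siDelta2-4 (SD, n = 3 each) gave a log2 fold change of -0.14 ± 0.28 (SE). The groups overlapped, siControl library 1 set the difference in mean, and without that library the log2 fold change was 0.12.

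DBI (ENSG00000155368.18, chr2:119366924-119372550, plus strand), the acyl-CoA carrier, was lower in every siDelta2-4 library. Its counts were 698, 640 and 586 in siControl and 450, 507 and 537 in siDelta2-4. The CPM values were 681, 614 and 561 against 421, 412 and 412. The siDelta2-4 libraries lay close together and below all siControl libraries. The mean was 619 ± 59.8 against 415 ± 5.40 CPM (SD, n = 3 each), a log2 fold change of -0.57 ± 0.091 (SE).

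C2orf76 (ENSG00000186132.15, chr2:119302225-119366834, minus strand) was lower as well. Its counts were 696, 627 and 608 in siControl and 382, 419 and 515 in siDelta2-4. The mean was 621 ± 51.0 against 364 ± 28.0 CPM (SD, n = 3 each), a log2 fold change of -0.76 ± 0.094 (SE). The groups did not overlap, and siDelta2-4 library 3 was the highest of its group at 395 CPM, below the lowest siControl library at 582 CPM.

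**Figure D1:**
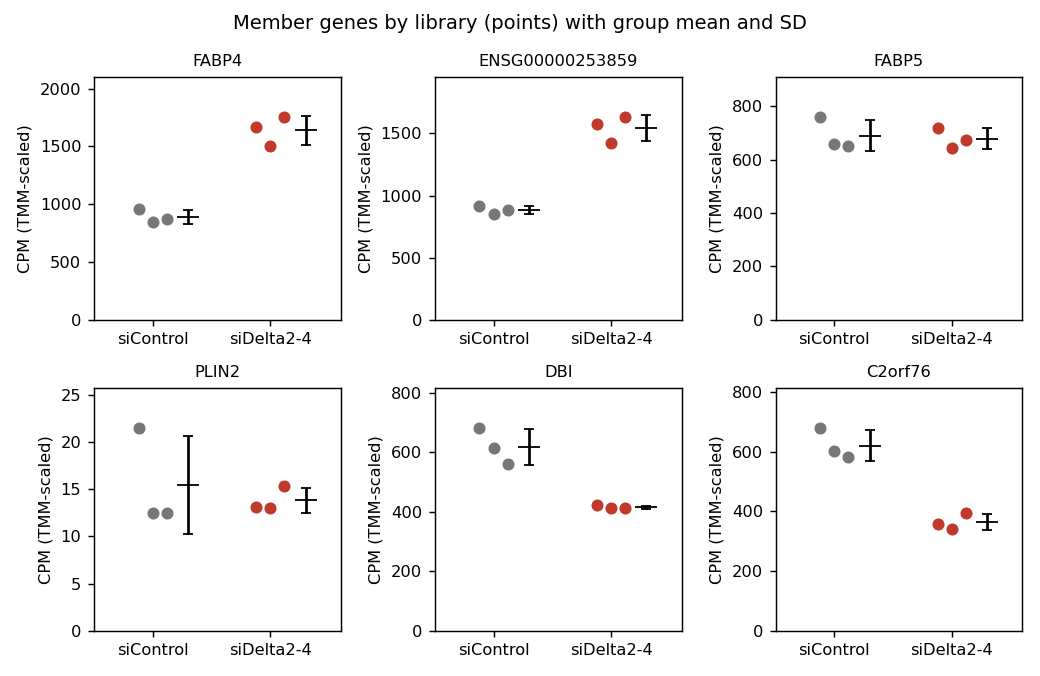
CPM on TMM-scaled totals (y axis) of each of the 6 genes in the siControl (grey) and siDelta2-4 (red) libraries, with 1 point per library and the group mean ± SD in black. FABP4 and ENSG00000253859 lie higher and DBI and C2orf76 lower in all 3 siDelta2-4 libraries, whereas FABP5 and PLIN2 overlap.

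All 6 genes passed the filter on low counts. In edgeR's quasi-likelihood test over 3888 genes, a gene being called at a Benjamini-Hochberg adjusted p under 0.1, 2 of the 6 were called higher (7% of all genes tested) and 2 lower (5.97%), against 13% called in either direction. The CPM of the groups did not overlap for 4 of the 6, against 26% of all genes tested. Since the same contrast chose the genes, nothing is read from these counts. The median log2 fold change was -0.081 over the 6 genes and 0.026 over all genes tested. With library totals in place of TMM the median of all genes was 0.090.

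At both loci the genes of opposite strands were counted in nearly equal numbers. The ratio of ENSG00000253859 counts to FABP4 counts was 0.955, 1.01 and 1.02 in siControl and 0.945, 0.945 and 0.930 in siDelta2-4. The ratio of C2orf76 to DBI counts was 0.997, 0.980 and 1.04 in siControl and 0.849, 0.826 and 0.959 in siDelta2-4. In both pairs every siDelta2-4 ratio was below every siControl ratio, with means of 0.992 ± 0.033 against 0.940 ± 0.0088 at FABP4 and 1.00 ± 0.030 against 0.878 ± 0.071 at DBI (SD, n = 3 each). Over all libraries the ratios were 0.956 and 0.95.

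**Figure D2:**
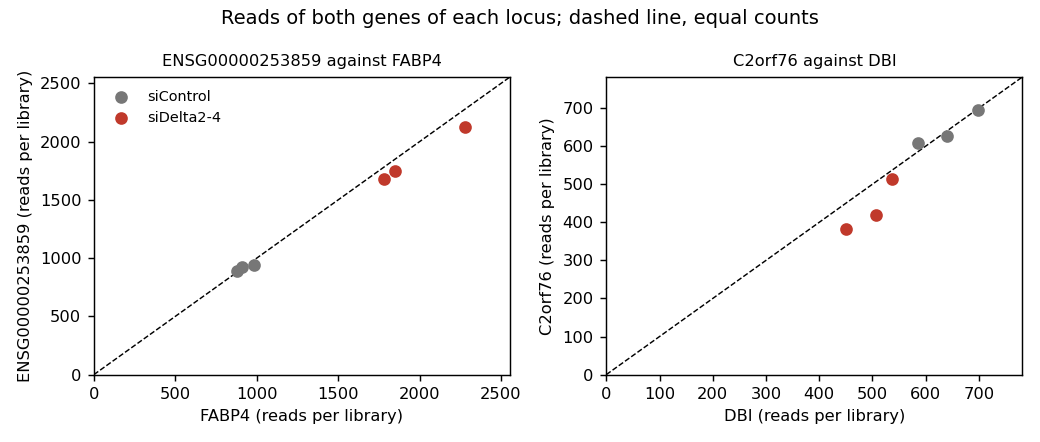
Reads per library of ENSG00000253859 against FABP4 (left) and of C2orf76 against DBI (right), with siControl in grey, siDelta2-4 in red and equal counts as the dashed line. All 6 libraries lie near the line at both loci, with overall ratios of 0.956 and 0.95.

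The annotation does not give these partners shared exons. The gene ENSG00000253859 is 82383 bases long with 2 exons on either side of FABP4, shares 0 exon bases with it, and its nearest exons lie 38325 and 14680 bases away from the 4818 bases of FABP4. C2orf76 covers 64610 bases on the far side of the 89-base gap from DBI, which covers 5627 bases. Reads of the annotated exons therefore differ by position. The models that carry the partners' counts are mostly outside the annotation, no coordinates were used for them here, and how the counting treated read orientation is not given in the sources used here. Whether reads of FABP4 and DBI entered the counts of their partners was not tested.

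**Figure D3:**
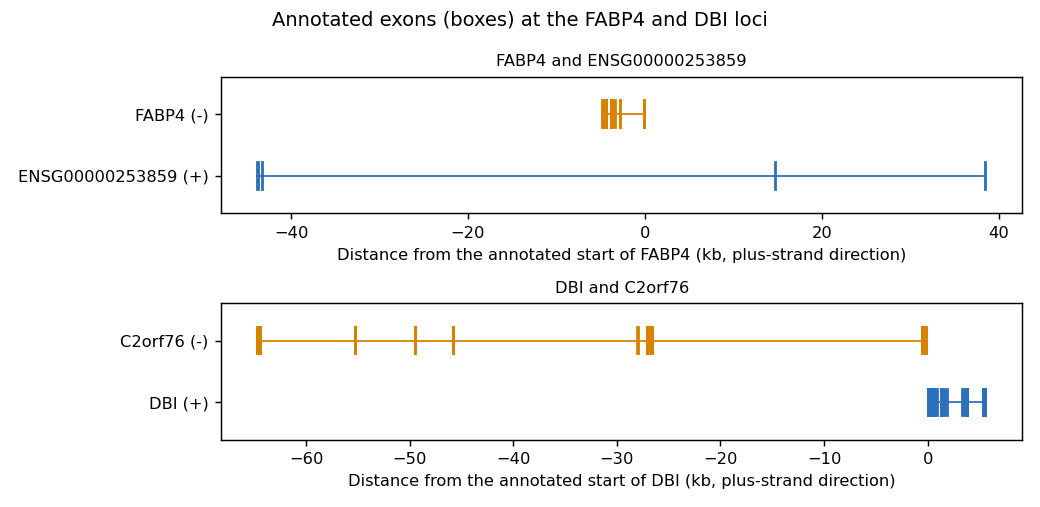
Annotated exons (boxes) and introns (lines) of FABP4 and ENSG00000253859 (top) and of DBI and C2orf76 (bottom) by distance in kb from the annotated start of FABP4 or DBI, with plus-strand genes in blue and minus-strand genes in orange. The FABP4 gene sits inside an intron of ENSG00000253859 with 0 shared exon bases, and the annotated ends of the DBI and C2orf76 genes lie 89 bases apart.

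The transcript models differed in kind between the partners. FABP4 had 9 models, of which the annotated FABP4-201 (4 exons, 911 bases) held 91.2% of the counts. Its level was 811 ± 50.6 and 1499 ± 98.9 CPM, while its share of the gene was 91.0% ± 0.82 against 91.4% ± 1.19 (SD, n = 3 each), so the groups differed in amount and hardly in composition. The annotated FABP4-204 held 165 counts and also did not overlap, at 16.7 ± 2.12 against 31.4 ± 0.48 CPM. Of the 7 FABP4 models with at least 20 counts, 6 were higher in every siDelta2-4 library, against 10.4% of all such models. Among the 6, TALONT000445156 and TALONT000446050 had at least 5 counts in every library of siDelta2-4 alone. Of the 5 models that also had at least 5 counts in all 6 libraries, 4 were higher, against 8.99% of all such models. Nothing is read from these counts since FABP4 was chosen for its difference. The exception in both sets was TALONT000445145 (3 exons, 714 bases), a model that TALON, the annotation tool of the study, had added. It had 18, 13 and 12 counts with siControl against 12, 14 and 28 with siDelta2-4, and its share of FABP4 counts was 1.54% ± 0.26 against 0.886% ± 0.30, with each siDelta2-4 share below each siControl share.

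ENSG00000253859 had 8 models, none of them annotated. The annotated transcript of the gene, of 4 exons and 546 bases, had no row. TALONT000445116 (4 exons, 1692 bases) held 82.5% of the counts and TALONT000445124 (4 exons, 1350 bases) 9.29%. TALON listed both as matches to the end part of a longer splice chain. Which chain that was is not given, and the annotated transcript has no more exons than these models. TALONT000445116 had 759, 740 and 745 counts with siControl against 1376, 1464 and 1767 with siDelta2-4. Of the 8 models 5 were higher in every siDelta2-4 library, against 10.4% of all models with at least 20 counts. The rule for rows (at least 5 counts in each siDelta2-4 library) could admit models through that group. TALONT000445158 (3, 3 and 3 against 5, 5 and 6 counts) and TALONT000445194 (4, 3 and 7 against 8, 9 and 9) had at least 5 counts in every library of siDelta2-4 alone. Of the 6 with at least 5 counts in all 6 libraries, 3 were higher, against 8.99% of all models with at least 20 counts and so many in each library. Nothing is read from these counts either, since ENSG00000253859 was chosen from the same contrast. All 8 were 648 to 1692 bases long, against 312 to 915 bases for the FABP4 models.

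FABP5 had 4 models of 673 to 685 bases, and FABP5-201 held 93.1% of the counts. All 4 overlapped between the groups. PLIN2 was counted almost wholly on PLIN2-201 (8 exons, 1897 bases), with 94 of 98 counts.

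DBI-202 (4 exons, 564 bases), an annotated model, held 97.5% of the DBI counts. It had 686, 624 and 572 counts with siControl against 436, 491 and 522 with siDelta2-4. The partner C2orf76 was the reverse: its single annotated model with a row, C2orf76-201 (6 exons, 685 bases), held 28 of 3247 counts (0.862%), with 7, 4 and 2 counts against 3, 9 and 3. The rest of C2orf76 lay on models added by TALON, 97.0% of it on TALONT000655425 (4 exons, 617 bases), with 678, 608 and 597 against 370, 398 and 499 counts. DBI and C2orf76 each had 1 model that was lower in every siDelta2-4 library (against 9.42% of all models with at least 20 counts and 11.6% of those with at least 5 in each library). Thus the lower C2orf76 counts rested on 1 unannotated model, and the counts of its annotated model overlapped between the groups. The first 4 exons of the 4 annotated C2orf76 transcripts with at least 4 exons sum to 279, 706, 560 and 725 bases.

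A minor pair of models had like size on both strands of the DBI locus. TALONT000656461, assigned to DBI, and TALONT000656462, assigned to C2orf76, each had 3 exons and 480 bases. The first had 9, 13 and 9 counts with siControl against 11, 12 and 12 with siDelta2-4, and the second had 11, 15 and 9 against 9, 12 and 13. Neither shared the lower level of the main models, and the groups overlapped for both.

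The rule for rows bears on the partners. All 21472 models in the table, annotated ones included, had counts in siDelta2-4, so a model counted in siControl alone had no row. All 6398 unannotated models in the table had at least 5 counts in every siDelta2-4 library, and 5173 of them had so many in every siControl library. Unannotated models with fewer siDelta2-4 counts could not be seen, so the sums for ENSG00000253859 and for C2orf76 cover only models that passed this limit.

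Reads of FABP5 can be split with processed copies of its mRNA in the genome. FABP5P7 (ENSG00000234964.4, chr11:59781318-59781722, minus strand), a processed pseudogene of 405 bases, matched part of FABP5-201 at 405 of 405 bases. Its counts were 135, 122 and 130 in siControl and 130, 28 and 0 in siDelta2-4. The loss was thus in siDelta2-4 libraries 2 and 3 and not in library 1, and the count of 0 allows up to 2.30 CPM (3 counts, for counting error only). Of the 1539 models with at least 100 counts in some library, 2 had 0 counts in another, FABP5P7 and TMSB4XP8, both pseudogenes.

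Because FABP5P7 is identical to a stretch of FABP5-201 (676 bases), the assignment of reads within that stretch is uncertain, and the sum of both was taken. Summed, the CPM values were 890, 777 and 778 in siControl and 842, 665 and 674 in siDelta2-4, with means of 815 ± 65.2 and 727 ± 99.3 (SD, n = 3 each), and the groups still overlapped. FABP5P7 took 14.8%, 15.1% and 16.0% of the sum in siControl and 14.5%, 3.42% and 0% in siDelta2-4. A second copy, FABP5P1 (ENSG00000236972.2, chr13:73100575-73100985, minus strand), matched FABP5-201 at 98.5% and had 1 to 5 counts per library.

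**Figure D4:**
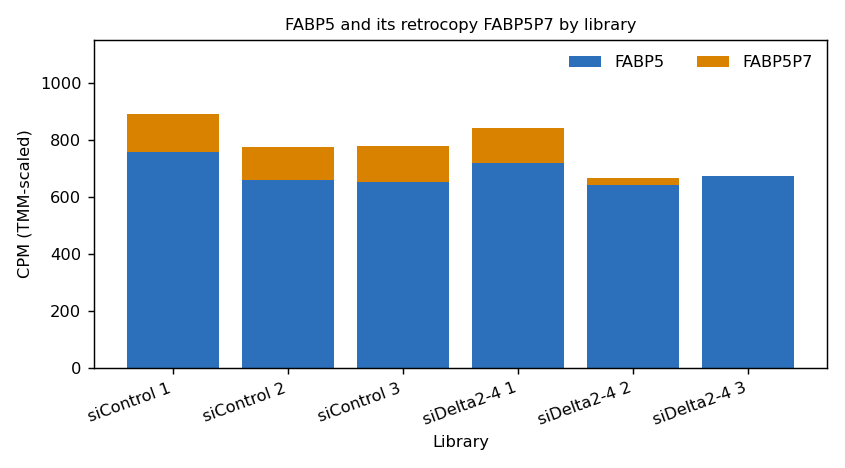
Stacked bars of CPM on TMM-scaled totals for FABP5 (blue) and FABP5P7 (orange) in each of the 6 libraries. The FABP5P7 share is 14.5% to 16.0% in the siControl libraries and siDelta2-4 library 1, 3.42% in siDelta2-4 library 2 and 0% in siDelta2-4 library 3.

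Few neighbours of these genes were counted. Within 100 kb, FABP4, ENSG00000253859, DBI and C2orf76 each had a single annotated neighbour with a row, which was the partner gene, and FABP5 had none. The other fatty acid binding protein genes of the FABP4 cluster, PMP2, FABP9 and FABP12, had no row. A gene counted in siControl alone would have had none either. Around PLIN2, RRAGA, which encodes a GTPase of amino acid sensing, had 1, 0 and 2 counts with siControl against 5, 6 and 2 with siDelta2-4. DENND4C, a regulator of Rab GTPases, had 2711 to 2886 CPM in siControl and 2578 to 2749 in siDelta2-4, which overlapped. How the counting treated read orientation is not given here either, and whether all of these reads came from DENND4C was not tested.

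The genes whose levels ran most like FABP4 were found by Pearson's r of log2 CPM over the 6 libraries, a description over points that share their libraries and depth. FABP4 was chosen for its difference between these same groups, so a high r can reflect a like group difference alone. No shared regulation is read from it. Among 3882 tested genes outside the 6, the highest were KCTD2 (r = 0.997), DPH3 (r = 0.997) and TALONG000073339 (r = 0.994), and 36 were above 0.95. KCTD2, an adaptor of ubiquitin ligases, was at 910 ± 9.20 CPM in siControl and 1151 ± 36.0 in siDelta2-4. It overlaps ATP5PD on the other strand (500 ± 40.7 and 472 ± 10.5 CPM), so the same doubt on orientation holds for its level. DPH3, needed for the diphthamide modification of elongation factor EEF2, was at 46.3 ± 3.81 and 82.4 ± 6.93 CPM. TALONG000073339, a gene that TALON placed between annotated genes, was at 9.33 ± 1.21 and 20.2 ± 1.10 CPM (SD, n = 3 each).

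Other genes of lipid binding and metabolism were taken from 11 lists of 182 genes that leave out the 6. Of these 94 had a row and 34 were tested, of which 2 were called higher, 2 lower and the other 30 did not pass. The called share, 11.8%, was near the 13% of all genes tested. Their median log2 fold change was 0.16, against 0.026 over all genes tested, and 22 of the 34 were above 0. At an unadjusted p under 0.05 there were 7 (20.6%), against 900 of all genes tested (23.1%). Without the filter on low counts all 94 were tested, and FDPS was called higher and NDUFAB1, NPC2 and CRABP2 lower.

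Among receptors, PPARG (ENSG00000132170.24, chr3:12287368-12434356, plus strand), the fatty acid receptor of adipocytes, was the only tested gene of its list and was higher. It had 27, 21 and 25 counts with siControl against 36, 54 and 41 with siDelta2-4. The mean rose from 23.5 ± 3.12 to 36.3 ± 6.62 CPM (SD, n = 3 each), with a log2 fold change of 0.60 ± 0.21 (SE) and an adjusted p of 0.083 in edgeR's quasi-likelihood test. The groups did not overlap, but the call rested on single libraries: the adjusted p was 0.104 without siControl library 1, 0.28 without siControl library 2, 0.130 without siDelta2-4 library 1 and 0.333 without siDelta2-4 library 2. UCP2, a mitochondrial carrier listed as another PPAR target, had 30.2 ± 7.12 and 25.1 ± 2.21 CPM and did not pass.

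In sterol synthesis, 1 of 7 tested genes was called. FDPS (ENSG00000160752.15, chr1:155308748-155320666, plus strand), which makes farnesyl diphosphate, had 52, 88 and 85 counts with siControl against 106, 151 and 160 with siDelta2-4. It rose from 72.2 ± 18.6 to 115 ± 13.6 CPM (SD, n = 3 each), with edgeR's adjusted p at 0.00807 and the log2 fold change at 0.66 ± 0.16 (SE). Every siDelta2-4 library was above every siControl library. RUSC1-AS1, which overlaps FDPS on the other strand, had 41, 63 and 75 against 90, 111 and 124 counts and a log2 fold change of 0.63 ± 0.17 (SE), so a near-equal difference was counted on both strands there too. EBP, a sterol isomerase, had 40.2 ± 2.86 and 50.1 ± 6.91 CPM and did not pass.

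Of 4 tested genes of fatty acid synthesis and desaturation, 1 was called. NDUFAB1 (ENSG00000004779.10, chr16:23581014-23596316, minus strand), the mitochondrial acyl carrier protein that is also a subunit of respiratory complex I, had 193, 216 and 195 counts with siControl against 145, 160 and 166 with siDelta2-4. It fell from 194 ± 11.4 to 131 ± 4.29 CPM (SD, n = 3 each), with edgeR's adjusted p at 0.0018 and the log2 fold change at -0.56 ± 0.11 (SE), without overlap. TECR, a reductase of fatty acid elongation, had 138 ± 13.1 and 144 ± 8.15 CPM.

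Of 4 tested carriers of other lipids, 1 was called. NPC2 (ENSG00000119655.11, chr14:74476192-74494177, minus strand), the lysosomal cholesterol carrier, had 184, 144 and 170 counts with siControl against 152, 129 and 155 with siDelta2-4. It fell from 160 ± 20.8 to 122 ± 18.9 CPM (SD, n = 3 each), with edgeR's adjusted p at 0.0551 and the log2 fold change at -0.39 ± 0.13 (SE), although siDelta2-4 library 1 (142 CPM) was above siControl library 2 (138 CPM). The adjusted p was 0.188 without siControl library 1, 0.289 without siDelta2-4 library 2, 0.168 without siDelta2-4 library 3 and 0.124 with library totals as the only scaling. PITPNA, of the same list, had 24.1 ± 3.54 and 16.6 ± 5.87 CPM and did not pass.

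No gene was called in the other lists. Fatty acid oxidation had 8 tested genes with a median log2 fold change of 0.24, led in counts by ETFB (263 ± 30.9 and 295 ± 14.5 CPM) and ECHS1 (65.2 ± 15.2 and 85.3 ± 17.3 CPM), an electron carrier and a hydratase of the pathway. Among perilipins and droplet proteins 4 were tested, and HILPDA, a droplet protein of hypoxia, had 25.7 ± 1.93 and 23.3 ± 1.64 CPM, while HSD17B11 had 22.4 ± 11.3 and 21.5 ± 1.33. For fatty acid uptake and activation 2 were tested, the thioesterases ACOT13 (81.0 ± 13.8 and 88.8 ± 3.13 CPM) and ACOT7 (22.1 ± 6.59 and 22.5 ± 9.10 CPM). The list drawn up around DBI and acyl-CoA binding gave 2 tested genes, the sterol carrier protein SCP2 (18.3 ± 3.42 and 23.9 ± 3.69 CPM) and ECI2 (17.6 ± 3.49 and 20.4 ± 3.10 CPM). The single tested gene of triglyceride metabolism, the lipase inhibitor G0S2, had 23.4 ± 3.02 and 18.5 ± 5.34 CPM.

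The family of FABP4 and FABP5 was otherwise at the edge of detection. Of its 14 other members 4 had a row and none passed the filter on low counts. CRABP2, which carries retinoic acid, had 5, 11 and 9 counts with siControl against 1, 4 and 3 with siDelta2-4, and FABP3, the heart form, had 5, 4 and 2 against 4, 4 and 6. Without the filter on low counts, edgeR's test called CRABP2 lower (log2 fold change -1.30 ± 0.39 (SE), adjusted p = 0.0336, without overlap of the groups) and not FABP3 (0.082 ± 0.41, adjusted p = 0.967), and DESeq2 gave neither an adjusted p.

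**Figure D5:**
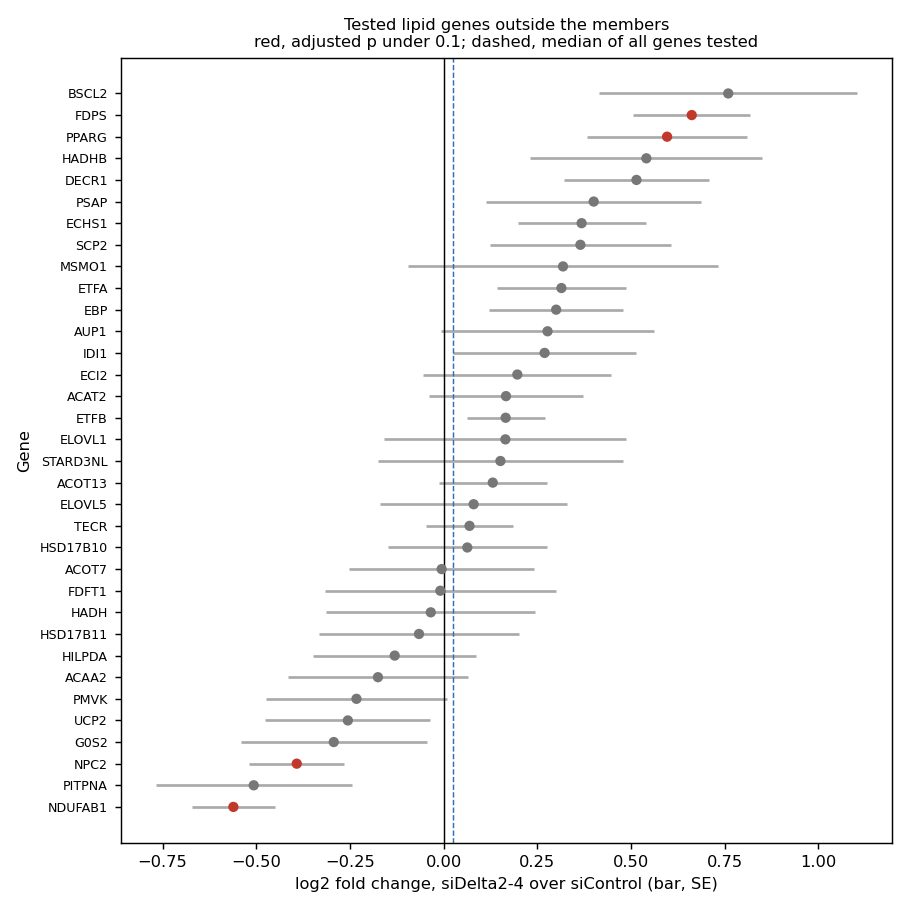
Log2 fold change of siDelta2-4 over siControl (x axis, points, with SE as bars) for the 34 tested genes of the lipid lists (y axis), red where the adjusted p was under 0.1 in edgeR's test, with the median of all genes tested (0.026) as the dashed line. FDPS and PPARG are called higher and NDUFAB1 and NPC2 lower.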

How the data were processed

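PCR-cDNA libraries of 6 Calu-6 samples were sequenced by the study on 1 Nanopore flow cell. The authors aligned reads with minimap2 2.14 to GRCh38.p14, with SAMtools 1.13 in the submitters' processing notes, ran TranscriptClean for correction and TALON for annotation by Gencode 44. The deposited values were raw counts of reads per transcript model, not normalised, with the model length in bases in another column. Columns of no sample numbered 0. The 6 genes and all lists were chosen with earlier results of these data known.

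Counts were summed per gene and fitted in R 4.3.3 by edgeR 4.0.16 (filterByExpr, TMM, quasi-likelihood test, two-sided, Benjamini-Hochberg, 3 libraries per group, no covariate, threshold 0.1). The genes tested held 98.8% of the counts. Log2 CPM used a prior count of 2, and the SE is the absolute log2 fold change over the square root of F. The script was tested on simulated data. Sequences were aligned with edlib. Genes named were the 6, their neighbours within 100 kb and pseudogenes by symbol, called lipid genes, up to 2 of the most counted genes of each list, markers with counts and the 3 genes most correlated with FABP4. Others (RUSC1-AS1, ATP5PD, TMSB4XP8, RPL7P1) were named after their values were seen. Alternatives were DESeq2 1.42.0, its size factors, library totals, 2 other filters, known models, annotated genes, a threshold of 0.05, a prior count of 0.125, a replicate block, each library left out, and, chosen after seeing the data, a length trend (loess, span 0.4) removed.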

Additional observations from a re-analysis of the deposited data

How the results depend on the processing

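FABP4, ENSG00000253859, DBI and C2orf76 kept their direction under every alternative that gave a value, with log2 fold changes of 0.83 to 0.95, 0.65 to 0.87, -0.66 to -0.46 and -0.83 to -0.66. Known models alone gave no value for ENSG00000253859 and C2orf76. FABP5 ranged from -0.085 to 0.074 and PLIN2 from -0.29 to 0.12. Of all genes, 504 were called, 272 higher and 232 lower. There were 252 with known models alone, 304 at an adjusted p under 0.05, 279 by the DESeq2 Wald test (78 higher, 201 lower) and 194 (without siDelta2-4 library 2) to 1041 (without siControl library 3) with a library left out. Library totals alone gave 361 higher and 152 lower, and the length trend removed 202 and 268. The cause was not tested. With a replicate block 299 genes were called. Same-numbered libraries deviated with correlations of -0.14 to 0.039. These showed no pairing by number, but libraries of unlike number were not compared, so pairing was not settled. Under the block PPARG had an adjusted p of 0.149 in edgeR's test. Of the lipid genes 4 were called, 2 at an adjusted p under 0.05, 2 with the length trend removed and 2 to 9 with a library left out (9 without siControl library 3, 2 without siControl library 1 or siDelta2-4 library 2). FDPS and NDUFAB1 were called under all 16 alternatives run. PPARG was lost in 7 of 15 and NPC2 in 5 of 16, among them the length trend (adjusted p 0.188 and 0.128) and, for PPARG, no filter (0.166). The filter on low counts left 60 of the 94 lipid genes with a row untested, and without it 1 was called higher and 3 lower, CRABP2 in place of PPARG.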
